A study of Mus musculus with 12 samples.

Results

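Mmp3, Mmp8, Mmp9, Mmp10, Mmp12, Mmp13, Mmp14, Plau, Plaur and Timp1 are 10 of the 21887 protein-coding genes that RefSeq places on the mouse chromosomes (GRCm38.p6). They encode matrix metalloproteinases, the urokinase plasminogen activator, its receptor and an inhibitor of metalloproteinases, and they were chosen by name as classical AP-1 target genes. FRA-1 binding around them was read from chromatin immunoprecipitation followed by sequencing (ChIP-seq), in which a peak is a stretch of the genome where DNA bound by FRA-1 is enriched. For each gene, every listed peak that lay within 20 kb of the gene body, or that the deposited tables assign to the gene by name, was counted. The windows held 78 peaks, which merged into 57 regions across the 9 libraries. No window shared a region with another.

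Metalloproteinases cut the collagens, proteoglycans and elastic fibres of the extracellular matrix, and macrophages use them to move through tissue, to clear debris and to release cytokines from the matrix or the cell surface. Urokinase turns plasminogen into plasmin at the cell surface, where its receptor holds it, and plasmin in turn activates secreted pro-metalloproteinases. TIMP-1 blocks the active enzymes. FRA-1, the product of Fosl1, is a member of the AP-1 family, binds DNA as a dimer with a Jun protein, and recognises the heptamer TGANTCA. In several textbook AP-1 targets such a heptamer lies close to the transcription start.

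The study compared 3 conditions, each with 3 FRA-1 libraries. Peritoneal macrophages of 8-week-old mice, on a 129/C57Bl6 background by the sample records and C57Bl/6 by the design text, received LPS, received apoptotic cells at a ratio of 1:5, or stayed unstimulated. Both treatments lasted 1 h. The sample records describe cells elicited with 2.5 ml of 4% thioglycollate and harvested 72 h later, whereas the design text describes lavage without an eliciting agent. They also differ on the LPS dose, with 1 µg/ml in the treatment protocol and 10 µg/ml in the design text. The labels used here name no transgene or deletion for any group. Adherent peritoneal cells are not purified macrophages, and with binding data alone their identity could not be checked by expression. The sample records name a set of mice that contributed to every condition, and the design text gives separate animals. The score columns name no mouse, so the replicates were treated as unpaired and were numbered by their column.

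The libraries did not stand on equal footing. Unstimulated libraries had 20981 to 28314 peaks, LPS libraries 39728 to 63010, and apoptotic cell libraries 31501 to 79474. Unstimulated 3, LPS 1, LPS 3 and apoptotic cells 3 formed a narrow class whose smallest peak was 104 to 116 bp wide, and the other 5 libraries a wide class with a smallest peak of 158 to 172 bp. The labels do not say what sets the classes apart. Each peak has a score, which is given as deposited because its scale is not stated in the sources used here. The scores take few distinct values, 2359 to 5852 per library, so equal scores recur at unrelated places. They are therefore also given as a percentile among the peaks of the same library. The files hold no read counts, so the depth is unknown, and a place without a listed peak had no binding detectable at the authors' threshold.

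Promoter sequences, from 250 bases before to 50 bases after a transcription start, were taken from RefSeq for 8 of the 10 genes (9 sequences, GRCm38.p6). Those of Mmp9 and Plau were not analysed here. The AP-1 heptamer TGANTCA, which reads the same on both strands apart from its middle base, was present in the promoters of 5 of these 8 genes, namely Mmp13, Mmp12, Mmp3, Mmp10 and Plaur. Of all 17492 genes with a promoter sequence, 8.12% have it (6.99% of the 21263 sequences). Since the genes were chosen as AP-1 targets, their count is a description only. The 5 matches are shown on the plus strand, with the heptamer in capitals, because they give the letters FRA-1 is known to recognise and their distance to the start. Neighbouring bases are shown up to the start at most, and fewer where the start lies inside a longer gene body.
Mmp13, chr9:7272449-7272513: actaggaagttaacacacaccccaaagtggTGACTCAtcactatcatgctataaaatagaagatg
Mmp12, second listed start, chr9:7347319-7347347: gacatcaacagTGAGTCAgatagaggatt
Mmp3, chr9:7445746-7445812: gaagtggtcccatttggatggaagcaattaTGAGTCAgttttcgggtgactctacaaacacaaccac
Mmp10, chr9:7502249-7502315: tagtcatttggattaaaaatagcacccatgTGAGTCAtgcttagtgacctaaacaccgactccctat
Plaur, chr7:24462403-24462431: acccctggagcTGACTCActctttagcaa

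The heptamer lay 35 to 29 bases before the start of Mmp13, 44 to 38 before the second start of Mmp12, 46 to 40 before that of Mmp3, 63 to 57 before that of Mmp10 and 69 to 63 before that of Plaur. Mmp13, Mmp12 and Mmp3 thus carried it within 50 bases of the start. Mmp8, Mmp14, Timp1 and the first start of Mmp12 had no match in these windows. None of the 9 promoters overlapped a listed FRA-1 peak in any of the 9 libraries, against 4.35% of all promoters. Across all promoters, those with the heptamer overlapped a peak in 4.04% of cases and those without it in 4.38%. The listed peak closest to each heptamer was 972 bp away at Plaur (unstimulated 2, score 292.85), 2478 bp at Mmp12 (apoptotic cells 3, score 90.04), 4150 bp at Mmp10 (unstimulated 1, score 228.63), 6687 bp at Mmp3 (LPS 2, score 102.78) and 9926 bp at Mmp13 (apoptotic cells 3, score 76.05). Each of these was listed in 1 library.

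Over the 10 windows together, the unstimulated libraries had 4, 6 and 4 peaks, the LPS libraries 11, 9 and 16, and the apoptotic cell libraries 10, 6 and 12. LPS libraries did not overlap the unstimulated ones, and apoptotic cells 2 equalled unstimulated 2. The whole LPS libraries did not overlap the unstimulated ones either, with 39728 to 63010 against 20981 to 28314 peaks. The share of other gene sets that separate in this way is not given. The means were 4.67 ± 1.15 (SD, n = 3) without stimulation, 12.0 ± 3.61 (SD, n = 3) after LPS and 9.33 ± 3.06 (SD, n = 3) after apoptotic cells. This is 2.57 times as many after LPS, where the libraries as a whole had 1.99 times as many peaks. For apoptotic cells the ratio was 2.0, and 2.03 for the whole libraries. When each library was cut to its 20981 highest-scoring peaks, the number of the smallest library, the LPS ratio was 1.0 and the apoptotic cell ratio 1.25.

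Per 100000 peaks of the library, the windows held 15.8, 28.6 and 14.1 peaks without stimulation, 23.9, 22.7 and 25.4 after LPS, and 24.5, 19.0 and 15.1 after apoptotic cells. On this scale unstimulated 2 was the highest of the 9 libraries, and the LPS values lay inside the unstimulated range. Within the LPS and the apoptotic cell group, libraries with more peaks also had more in the windows. Among the unstimulated libraries this was not so. Unstimulated 2 had 20981 peaks and 6 in the windows, and unstimulated 3 had 28314 and 4. The part of library size in the difference between conditions was not tested.

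**Figure D1:**
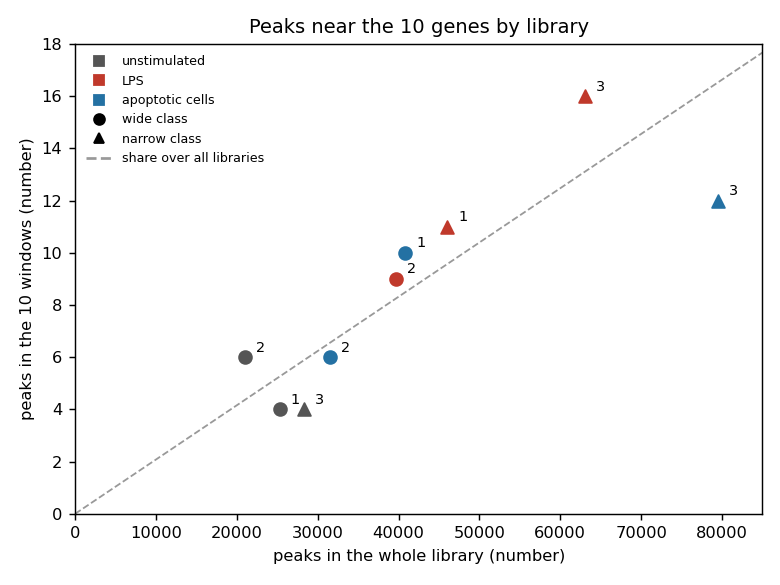
Peaks in the 10 windows (vertical axis, number) against peaks in the whole library (horizontal axis, number) for the 9 libraries, with colour for condition, shape for width class, the replicate number beside each point, and a dashed line at the share over all libraries. The points run from 4 peaks in unstimulated 1 and unstimulated 3 to 16 in LPS 3, and apoptotic cells 3, with the most peaks of all, lies below the line at 12.

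At the level of single genes, 7 of the 10 had at least 1 peak in an unstimulated library (78.3% of all genes), all but Mmp3, Mmp8 and Mmp9. After LPS all 10 had one (92.3% of all genes), and after apoptotic cells 9 did, all but Mmp10 (93.1% of all genes). Most of these peaks were not shared. Of the 57 regions, 50 were listed in 1 library only (87.7%, against 89.7% of all 300608 regions), 10 of them in an unstimulated, 22 in an LPS and 18 in an apoptotic cell library. A region counted as shared within a condition when at least 2 of its 3 replicates had a peak there. By this measure no gene had a shared region without stimulation (13.6% of all genes did). After LPS 5 genes had one, Mmp9, Mmp14, Plau, Plaur and Timp1 (48.8% of all genes), and after apoptotic cells 3 did, Mmp14, Plaur and Timp1 (24.5% of all genes). With 10 genes, 5 and 3 are close to the shares of all genes. Without LPS 1, or without LPS 3, the LPS count was 0, and the share of all genes without these libraries is not given.

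A region in at least 2 LPS and no unstimulated libraries was present at Mmp9, Mmp14 and Plau, 3 of 10 genes (34.1% of all genes). No gene had a region in at least 2 apoptotic cell and no unstimulated libraries (8.17% of all genes). Leaving out unstimulated 3 raised these counts to 5 for LPS and 3 for apoptotic cells. Leaving out LPS 1 or LPS 3 brought the LPS count to 0. The share of all genes with these libraries left out is not given, so these changes cannot be read as particular to the 10 genes. In the reverse direction, no gene had a region in at least 2 unstimulated libraries and none of LPS (0.891% of all genes) or none of the apoptotic cell libraries (1.53% of all genes). Between the treatments, Mmp9, Mmp14 and Plau had a region in at least 2 LPS and no apoptotic cell libraries (29.1% of all genes), and no gene had the opposite (2.73% of all genes).

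No gene had more peaks in every LPS library than in every unstimulated one (9.87% of all genes), and none did so for apoptotic cells (6.57% of all genes). Without unstimulated 3, or without LPS 1, LPS 2 or LPS 3, the LPS count was 1 or 2. The apoptotic cell count was 1 without unstimulated 3, apoptotic cells 1 or apoptotic cells 2. The share of all genes is not given for these omissions. In an exact permutation test of the peaks per window (two-sided, Benjamini-Hochberg adjustment over 21129 genes for LPS and 21193 for apoptotic cells), the smallest p among the 10 was 0.3, for Timp1 in both comparisons (adjusted p = 0.946 and 1.0). Its mean number of peaks was higher by 1.33 after LPS and by 1.0 after apoptotic cells. The smallest p that 3 libraries against 3 allow is 0.1, so that no gene could pass 0.05. Both comparisons used the same unstimulated libraries.

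**Figure D2:**
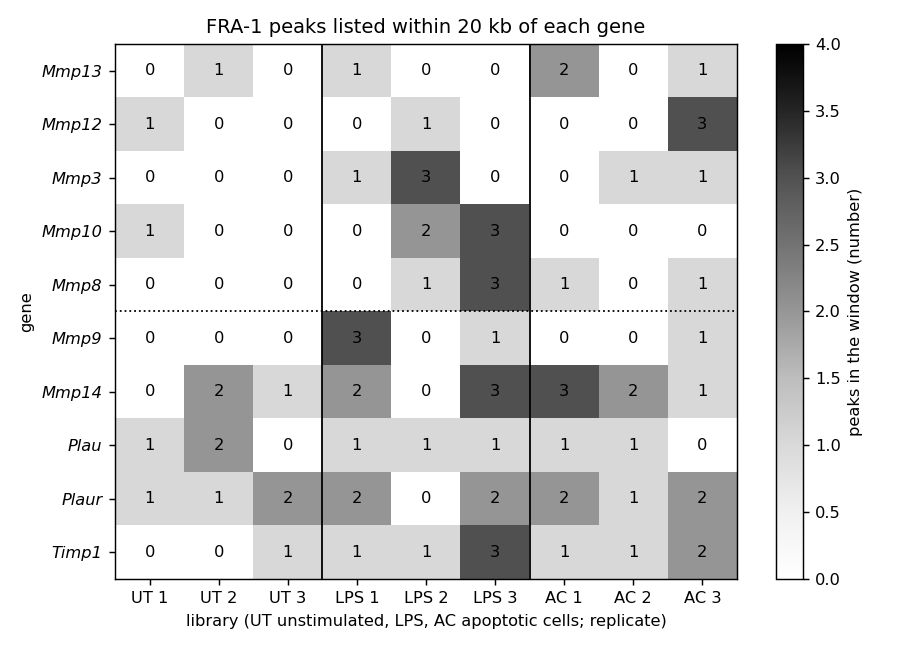
Number of listed FRA-1 peaks within 20 kb of each gene (rows) in each of the 9 libraries (columns, UT unstimulated, AC apoptotic cells), with the number printed in each cell and a dotted line between the 5 genes of the chromosome 9 cluster and the other 5. Every gene has at least 1 library at 0, and no cell exceeds 3.

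**Figure D3:**
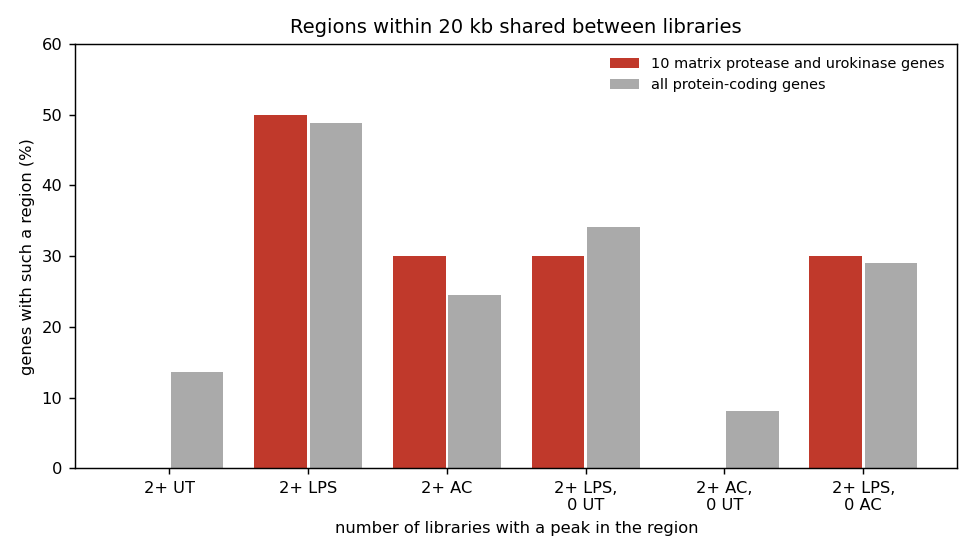
Share of genes (vertical axis, percent) with a region listed in the libraries named on the horizontal axis (2+ means at least 2), for the 10 genes and for all 21887 protein-coding genes. The 10 genes stand at 0, 50, 30, 30, 0 and 30%, beside 13.6, 48.8, 24.5, 34.1, 8.17 and 29.1% of all genes.

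The collagenases, stromelysins and the elastase sit side by side on chromosome 9. Mmp13 (collagenase, 7272514 to 7283333) is followed by Mmp12 (macrophage elastase, 7344397 to 7360461), Mmp3 (stromelysin, 7445822 to 7455975), Mmp10 (stromelysin, 7502342 to 7510242) and Mmp8 (the neutrophil collagenase, 7558429 to 7568486). Their windows held 28 regions, and each of the 28 was listed in 1 library, 3 in unstimulated, 15 in LPS and 10 in apoptotic cell libraries. In the whole stretch from Mmp13 to Mmp8, 296.0 kb long and taken with 20 kb on each side, the same was true of all 37 regions. A shared FRA-1 region was therefore not listed anywhere along these 5 genes. Over the whole genome, 89.7% of regions were listed in 1 library. The share of stretches of this size without a shared region is not given, so the absence cannot be read as particular to these genes. Of the 5 promoters with a heptamer, 4 are theirs.

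Mmp13 had 0, 1 and 0 peaks without stimulation, 1, 0 and 0 after LPS, and 2, 0 and 1 after apoptotic cells. All 5 lay outside the gene, and the highest score was 158.73 (72.7th percentile), in apoptotic cells 1, at 13005 to 13186 bp upstream of the start. A peak of LPS 1 (116.32) and one of apoptotic cells 1 (110.09) lay beyond the 3′ end, from 7297787 to 7297916 and from 7298001 to 7298215, next to each other but without overlap. Mmp12 had 1, 0 and 0 peaks, then 0, 1 and 0, then 0, 0 and 3. The peak nearest to its first start belonged to apoptotic cells 3, at 349 to 455 bp downstream scoring 90.04 (33.7th percentile). Its highest score was 116.53 (39.6th percentile), in LPS 2, inside the gene. At both genes the libraries of a condition disagreed, and the conditions overlapped.

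Mmp3 had no peak in any unstimulated library, 1, 3 and 0 after LPS, and 0, 1 and 1 after apoptotic cells. Its highest score was 169.16 (68.3rd percentile), in apoptotic cells 2, at 9586 to 9779 bp upstream. Both peaks inside the gene came from LPS 2, with scores of 102.78 and 85.67. Mmp10 had 1, 0 and 0 peaks without stimulation, 0, 2 and 3 after LPS and none after apoptotic cells. All 3 peaks of LPS 3 lay just beyond the 3′ end, from 7511757 to 7511879 (365.26, 92.5th percentile), from 7512701 to 7512814 (304.03, 81.9th percentile) and from 7514583 to 7514689 (130.36). The first of them had the highest score of the cluster. A peak of LPS 2 lay close by, from 7511174 to 7511343 (89.28), without overlap. Mmp8 had none without stimulation, 0, 1 and 3 after LPS, and 1, 0 and 1 after apoptotic cells. Its highest score was 226.93 (67.9th percentile), in LPS 3, at 18079 to 18189 bp upstream. At Mmp3, Mmp10 and Mmp8 one LPS library had no peak, as in the unstimulated group, so that the groups overlapped.

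Beyond Mmp8, shared regions began just outside the stretch. The nearest, from 7589671 to 7589967 at Mmp27, lay 21185 bp beyond the end of Mmp8 and was listed in 6 libraries, with scores of 125.13 in unstimulated 1, 220.28 in unstimulated 3, 261.05 in LPS 1, 229.46 in LPS 3, 68.16 in apoptotic cells 1 and 122.87 in apoptotic cells 3. A second, from 7684111 to 7684368, lay 115625 bp beyond Mmp8, between Mmp20 and Mmp7, and was listed in all 9 libraries. There the scores were 229.0, 150.95 and 419.79 without stimulation, 459.15, 294.52 and 470.12 after LPS, and 415.63, 240.31 and 304.08 after apoptotic cells. Of all 300608 regions, only 1372 were listed in all 9 libraries, and none of the 57 around the 10 genes was. With so small a share over all regions, this absence is not particular to the 10 genes. Mmp1a and Mmp1b, the collagenase genes within the stretch, had 3 and 6 regions, each in 1 library.

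Mmp9, the gelatinase that cuts denatured and basement membrane collagen, lies on chromosome 2 from 164940326 to 164955850. It had no peak in any unstimulated library, 3, 0 and 1 after LPS, and 0, 0 and 1 after apoptotic cells. LPS 1 and LPS 3 shared a region from 164934097 to 164934207, at 6119 to 6229 bp below the lower end of the gene and in no gene body. The scores there were 96.58 (30.7th percentile) and 171.56 (49.0th percentile). Peaks inside the gene were single, with 120.95 in apoptotic cells 3 and 77.35 in LPS 1. LPS 2 had none, as in the unstimulated libraries, so that the groups overlapped (exact permutation test, two-sided, p = 0.4, adjusted p = 0.946).

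Mmp14 encodes the membrane-anchored metalloproteinase that cleaves collagen at the cell surface and activates secreted pro-gelatinase. It lies on chromosome 14 from 54431598 to 54442456 and had the most peaks of the 10 genes, 14 in all, with 0, 2 and 1 without stimulation, 2, 0 and 3 after LPS, and 3, 2 and 1 after apoptotic cells. Its main region, from 54422766 to 54422935, lay 8663 to 8832 bp upstream in no gene body, 2698 bp from Slc7a7. It was listed in 6 libraries, with scores of 150.73 in unstimulated 3, 267.31 in LPS 1, 323.04 in LPS 3, 169.54 in apoptotic cells 1, 217.87 in apoptotic cells 2 and 183.98 in apoptotic cells 3. These ranked at the 51.3rd, 88.8th, 85.8th, 75.5th, 86.1st and 90.3rd percentiles. All 3 apoptotic cell libraries had it, and unstimulated 1, unstimulated 2 and LPS 2 did not. It is the region with the lowest percentile in unstimulated 3 among the 3 regions listed in 6 libraries.

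A second shared region of Mmp14, from 54427643 to 54427880, lay 3718 to 3955 bp upstream inside the neighbouring Mrpl52, and the deposited tables assign it to Mmp14. Its scores were low, with 93.61 in LPS 1 (22.0th percentile) and 125.31 in LPS 3 (19.9th percentile). A peak of unstimulated 2, also assigned to Mmp14, began 119 bp further on, from 54428000 to 54428424, with a score of 58.62. Listed as separate regions, they count as an LPS region without an unstimulated peak, although an unstimulated library had a low-scoring peak beside it. Inside Mmp14 itself, apoptotic cells 1 and apoptotic cells 2 had 1 peak each (169.85 and 136.49), at different places.

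Plau, the urokinase gene, lies on chromosome 14 from 20836662 to 20843388. It had 1, 2 and 0 peaks without stimulation, 1 in each LPS library, and 1, 1 and 0 after apoptotic cells. The means were 1.0 ± 1.0 (SD, n = 3) without stimulation and 1.0 ± 0.0 (SD, n = 3) after LPS. The mean number of peaks thus did not differ. Their places did, but 6 of the 7 regions at Plau were listed in 1 library. Places therefore also differed between libraries of the same condition. LPS 1 and LPS 3 shared a region from 20843183 to 20843294, inside the gene at its upper end, with scores of 127.37 (42.8th percentile) and 245.63 (69.6th percentile). The peak of LPS 2 was also inside the gene, from 20837962 to 20838161, with 99.07. Unstimulated peaks lay only outside, and the highest, in unstimulated 1 from 20817538 to 20817716, had 228.63 (90.7th percentile). Peaks inside Plau were thus listed in 3 of 3 LPS libraries, in 0 of 3 unstimulated and in 0 of 3 apoptotic cell libraries, but at 2 different places. This count was made after the values were seen, and the share of all genes with such a count in the gene body is not given.

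Plaur, the urokinase receptor gene, lies on chromosome 7 from 24460937 to 24475970, with its listed promoter at the start 24462483. It had 1, 1 and 2 peaks without stimulation, 2, 0 and 2 after LPS, and 2, 1 and 2 after apoptotic cells. The region inside the gene, from 24473942 to 24474272, lay 11459 to 11789 bp downstream of this start. It was listed in 6 libraries, with scores of 196.7 in unstimulated 3, 136.64 in LPS 1, 365.26 in LPS 3, 129.52 in apoptotic cells 1, 93.23 in apoptotic cells 2 and 184.35 in apoptotic cells 3. The percentiles were 82.3, 62.9, 92.5, 63.3, 16.4 and 92.9. By percentile unstimulated 3 was above LPS 1 and below LPS 3, so that no order of the conditions showed in this region. A second region, from 24493518 to 24493635, lay 17548 to 17665 bp beyond the upper end of Plaur inside Cadm4, and was listed in the 4 libraries of the narrow class, with 107.3 in unstimulated 3, 178.77 in LPS 1, 226.93 in LPS 3 and 146.98 in apoptotic cells 3. The peak closest to the start belonged to unstimulated 2, from 24461227 to 24461442. Relative to this start it spanned -1256 to -1041 bp, its score was 292.85 (97.8th percentile), and no other library of any condition had a peak there.

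Timp1, the gene of the inhibitor, is the shortest of the 10 and lies on chromosome X from 20870166 to 20874737, within the gene body of Syn1 and beside Araf. It had 0, 0 and 1 peaks without stimulation, 1, 1 and 3 after LPS, and 1, 1 and 2 after apoptotic cells. None was inside Timp1, and of the 5 regions 4 lay in the gene body of Araf and 1 in that of Syn1. The region from 20850605 to 20850787, inside Araf at 19379 to 19561 bp upstream of Timp1 and so just within the 20 kb limit, was listed in 6 libraries. Its scores were 173.61 in unstimulated 3, 290.79 in LPS 1, 470.12 in LPS 3, 299.8 in apoptotic cells 1, 133.78 in apoptotic cells 2 and 184.35 in apoptotic cells 3. The percentiles were 71.1, 92.8, 98.2, 97.9, 57.1 and 92.9, and 470.12 was the highest score around the 10 genes. Unstimulated 3 was the only unstimulated library with a peak, and its count of 1 equalled the lowest of both treated groups. With that library left out, every LPS and every apoptotic cell library had more peaks at Timp1 than the other unstimulated libraries, which had none. The share of all genes that separate under this omission is not given.

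**Figure D4:**
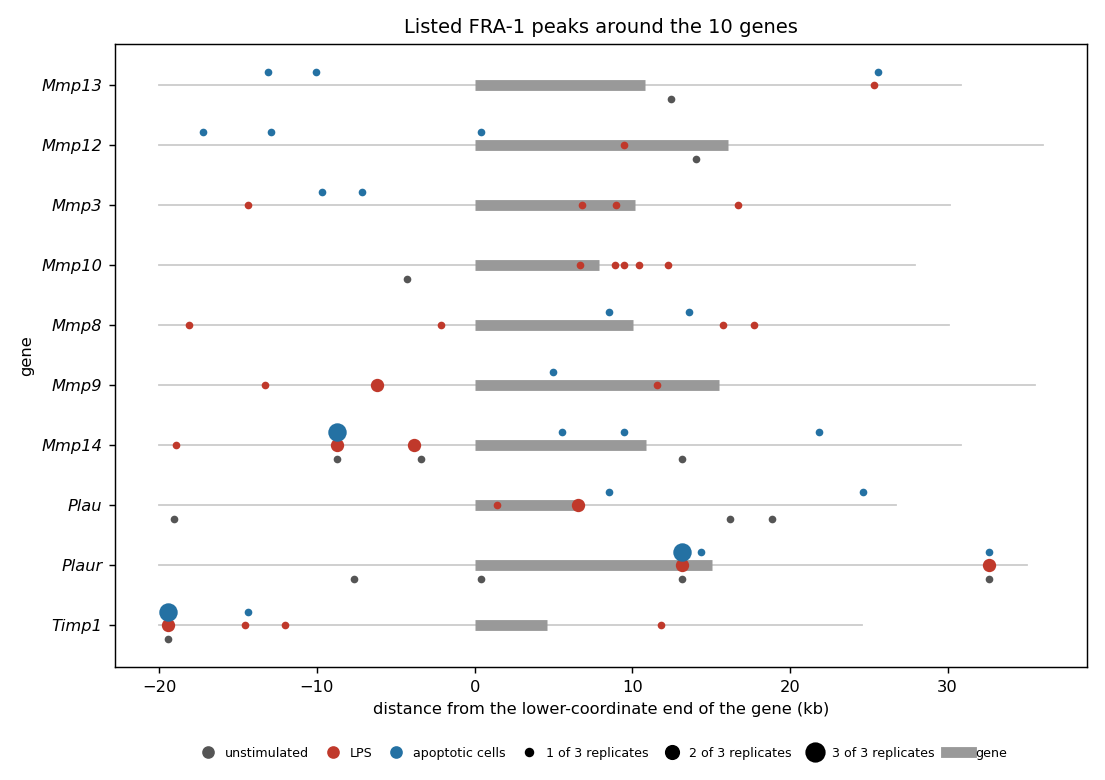
Listed FRA-1 regions around each gene by condition, with distance from the lower-coordinate end of the gene in kb on the horizontal axis, the gene as a grey bar, the 20 kb window as a line, and dot size for the number of replicates of the condition with a peak. All dots of Mmp13, Mmp12, Mmp3, Mmp10 and Mmp8 have the smallest size, and the dots for 3 of 3 replicates belong to apoptotic cells at Mmp14, Plaur and Timp1.

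The 7 shared regions were listed in few combinations of libraries. All 7 were in LPS 1 and in LPS 3, 4 were in unstimulated 3 and 4 in apoptotic cells 3. None was in unstimulated 1, unstimulated 2 or LPS 2. The regions at Mmp14, Plaur and Timp1 listed in 6 libraries had the identical set, unstimulated 3, LPS 1, LPS 3 and the 3 apoptotic cell libraries. This was also the most frequent set genome-wide among regions in 6 libraries, with 542 of 1436 (37.7%). The set of LPS 1 and LPS 3 alone, seen at Mmp9, Plau and Mmp14, was the most frequent among regions in 2 libraries, with 7627 of 16436 (46.4%). The 4 narrow libraries made up 329 of 2724 regions in 4 libraries (12.1%). LPS 3 had a higher score than LPS 1 in 7 of 7, as in 81.6% of the 21233 regions that both libraries had. Scores were higher in LPS 3 as a whole, with a median of 180.72 against 136.64. By percentile within the library, LPS 3 was above LPS 1 in 4 of the 7, and below it at both Mmp14 regions and at the Plaur region inside Cadm4 (67.9 against 77.6). The 3 libraries with none of the 7 regions belong to the wide class, as do apoptotic cells 1 and apoptotic cells 2, which had 3 of the 7.

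**Figure D5:**
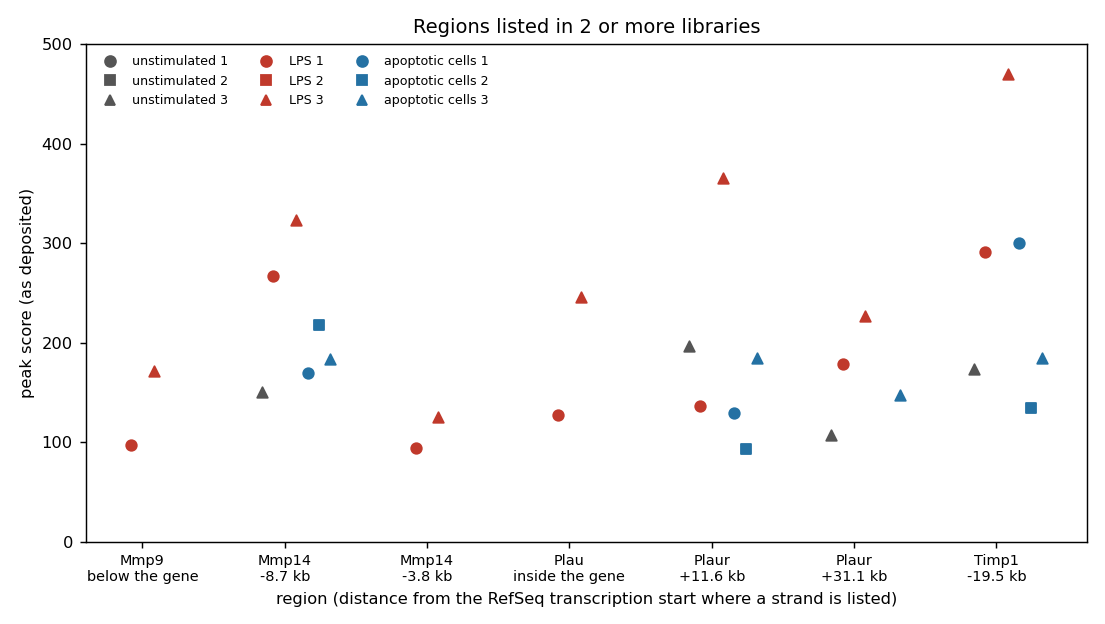
Peak score as deposited (vertical axis) in each library with a peak, for the 7 regions listed in 2 or more libraries (horizontal axis, with distance from the RefSeq start in kb where a strand is listed), with colour for condition and shape for replicate. LPS 3 lies above LPS 1 in each region, with LPS 3 values from 125.31 at the Mmp14 region closer to the start to 470.12 at Timp1, and 3 regions have points from LPS alone.

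Of 46 related matrix genes (other metalloproteinases, their inhibitors, plasminogen activators and serpins, ADAM and ADAMTS proteases, cathepsins and matrix ligands), all 46 had a listed peak. A region in at least 2 replicates was present at 8 without stimulation, 23 after LPS and 10 after apoptotic cells, beside 13.6, 48.8 and 24.5% of all genes. For 14 the region was in at least 2 LPS and no unstimulated libraries (34.1% of all genes) and for 2 in at least 2 apoptotic cell and no unstimulated libraries (8.17% of all genes). Among the direct partners of the 10 genes, Plat, which encodes the tissue-type plasminogen activator, had a region in at least 2 LPS and no unstimulated libraries. Serpinb2, an inhibitor of plasminogen activators, had one in at least 2 apoptotic cell and no unstimulated libraries. Plg, Timp2, Timp3 and Timp4 had single-library regions only.

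Ranked by how many libraries had their best region, with ties set by the summed score, the first 6 related genes were Mmp20 and Mmp7, through the region in all 9, then Adamts9 (chr6:92857029-92857201, inside the gene), Bsg (chr10:79691074-79691259) and Lrp1 (chr10:127622647-127622819), each in 8, and Mmp25 (chr17:23645679-23646076) in 7. Mmp24 also had a region in 7 libraries, with a summed score of 1455.2 against 1919.2 at Mmp25. ADAMTS9 is a proteoglycan-cleaving protease, Bsg encodes an inducer of metalloproteinases, Lrp1 encodes a receptor that clears protease and inhibitor complexes, and Mmp25 encodes a membrane-anchored metalloproteinase. At Adamts9 the scores were 244.07 and 368.26 in unstimulated 2 and 3, 434.44, 126.89 and 448.8 after LPS, and 211.84, 331.58 and 324.95 after apoptotic cells. No region around the 10 genes reached 7 libraries, and most of the related genes had no such region either. The 6 genes above were ranked first for their most shared region. The share of all genes with a region in at least 7 libraries is not given. The absence can therefore not be read as particular to the 10 genes.

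FRA-1 regions near cell type markers are no measure of expression. A region in at least 2 replicates was present at 13.6% of all genes without stimulation, 48.8% after LPS and 24.5% after apoptotic cells. Of 7 macrophage markers 0 had a region in at least 2 unstimulated, 4 in at least 2 LPS (Adgre1, Itgam, Mertk and Csf1r) and 3 in at least 2 apoptotic cell libraries. The counts were 0, 1 and 0 of 5 neutrophil markers, 0, 1 and 0 of 3 T cell markers, 1, 2 and 1 of 3 B cell markers, and 1, 2 and 1 of 3 mast cell markers. The part of other peritoneal cells in the peaks around the 10 genes was not tested.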

How the data were processed

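FRA-1 ChIP-seq peaks of 9 libraries (3 per condition) were analysed, and pooled inputs were not used here. The authors deposited 1 table per condition, which gives for every genomic segment a score in each of 3 replicates (-1 where no peak was called) and, for some, a gene. The submitters' processing notes name BWA 0.7.14, bedtools and mm10. The peak caller is not given in the sources used here. Peaks were called per replicate, so a lower threshold or a deeper library lists more of them, and no read counts are given.

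Peaks were rebuilt by joining neighbouring segments of equal score, and touching or overlapping peaks of the 9 libraries were merged into regions. Windows reached 20 kb on each side of the RefSeq gene body. The steps were tested on simulated data. The 10 genes, the 46 related genes and the markers were chosen with earlier results of these data known. The text names all 10 genes, their most shared and highest-scoring regions, and the first 6 related genes by the number of libraries with their best region (ties by summed score). Further regions of the 10 genes, and Plat, Plg, Serpinb2, Timp2, Timp3, Timp4, Mmp24, Mmp27, Mmp1a and Mmp1b were named after their values were seen. Exact permutation tests compared peaks per window, and other windows, score minimums, equal peak numbers, width classes and left-out libraries were tried. TGANTCA was searched in promoters only, as no genome sequence was used here. The p-values measure the spread between these libraries, which may be technical. Python 3.11.15, numpy 2.4.6, pandas 2.3.3 and scipy 1.17.1 were used.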

Additional observations from a re-analysis of the deposited data

How the results depend on the processing

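Among the recomputed values, 83 stayed within 1.5 times the reported count or within the spread between replicates, and 47 moved. Counts are of the 10 genes, and no share of all genes is given for the same settings. The cause of a change was not tested, and some settings by themselves list fewer peaks or libraries. Cutting peaks to 200 bp around their centre before merging moved nothing, and TGACGTCA added to TGANTCA left 5 genes with a match. For a shared region (0 without stimulation, 5 after LPS, 3 after apoptotic cells), a 5 kb window gave 3 after LPS and 1 after apoptotic cells, a 50 kb window 2 without stimulation and 5 after apoptotic cells, the gene body alone 2 and 1, the deposited gene column alone 1 and 0, and equal numbers of peaks 2 after LPS. Leaving out 1 library gave 0 to 5 after LPS. For a region in at least 2 LPS and no unstimulated libraries (3), the counts were 5 at 50 kb, 1 for the gene body, 1 for the gene column, 1 with scores of at least 100, 0 with equal numbers, and 0 to 5 without 1 library. The apoptotic cell count (0) was 3 in the wide class and 0 to 3 without 1 library. The LPS ratio (2.57) was 1.0 for the gene column, 3.38 with scores of at least 100, 1.0 with equal numbers and 3.38 in the narrow class, and the apoptotic cell ratio (2.0) was 3.0 for the gene body, 0.67 for the gene column, 1.25 with equal numbers and 3.0 in the narrow class. For more peaks in every LPS than every unstimulated library (0), the counts were 1 at 5 kb, 1 at 50 kb, 1 for the gene body, 3 in the narrow class, 4 in the wide class and 0 to 2 without 1 library, and for apoptotic cells (0) they were 6 in the narrow class, 1 in the wide class and 0 to 1 without 1 library. Leaving out unstimulated 3 and LPS 2 together was chosen after seeing the data. It gave 5 genes with a region in at least 2 LPS and no unstimulated libraries. For apoptotic cells in place of LPS it gave 3, and the same region can count for both treatments. More peaks in every treated than every unstimulated library were then present at 3 genes for LPS and 1 for apoptotic cells. Where a class holds 1 library of a condition, there is no replicate check. No paired analysis was possible because no column can be tied to a mouse. Depth is unknown, so weak binding below the authors' threshold could not be seen.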

Other observations

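Single-library peaks were not spread evenly over the libraries, which themselves had 20981 to 79474 peaks. The number of single-library regions of each library over the whole genome is not given for comparison. Of the 50 regions around the 10 genes listed in 1 library, unstimulated 3 had 0, unstimulated 1 had 4 and unstimulated 2 had 6. After LPS the numbers were 4, 9 and 9, and after apoptotic cells 7, 3 and 8. LPS 2 had 9 peaks in the windows and none of them was in a region that another library had. Its peaks lay mostly in the chromosome 9 cluster, with 7 in the 5 cluster windows and 2 in the other 5, against 2 and 9 in LPS 1, and 6 and 10 in LPS 3. The labels give no reason for this split, and it was not tested or set against the libraries as a whole.

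The 10 genes are shorter than most, with a median gene body of 10487 bp against 17169 bp over all genes. A shorter body gives a smaller window, and the share of all genes printed beside each count was not adjusted for it.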
